A study of Bos taurus with 30 samples.

Results

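Translation initiation and elongation factors are the proteins that bring ribosomes onto messenger RNA and move them along it. The members were every array feature with a gene name whose symbol, in the platform annotation or in the current nomenclature, begins with EIF or EEF followed by a number. They were 54 features of 26 genes, out of 3269 named genes on the array. Of these, 21 genes carried an EIF symbol and 4 an EEF symbol. The remaining gene, AGO3, entered only through its old platform symbol EIF2C3, and it encodes an Argonaute protein of small RNA pathways, not a translation factor. For 11 of the genes the platform used an older name.

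The samples were lymphocytes of Bos taurus cows, collected at the slaughterhouse according to the labels, and hybridised 1 sample per array. The 8 treated cows are labelled prednisolone and the 7 other cows are labelled control. Each of the 15 cows was sampled at T1 and again at T2, which gave 30 arrays in 4 groups. Prednisolone is a synthetic glucocorticoid, given by mouth at 30 mg per head each day for 35 days. The text on dosing stands with the control samples too. The labels do not place the sampling times within the dosing, and they give neither breed nor age.

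In mammals, initiation starts when eIF2, loaded with GTP and the initiator tRNA, joins the small ribosomal subunit together with eIF1, eIF1A and the many-subunit eIF3. The cap-binding complex eIF4F (the cap binder eIF4E, the RNA helicase eIF4A and the scaffold eIF4G) recruits this assembly to the capped end of the messenger RNA, and eIF2B recharges eIF2 with GTP afterwards. Kinases that phosphorylate eIF2 under stress block that recharging, and in lymphocytes the rate of initiation rises on activation. Elongation factors then deliver each aminoacyl-tRNA. The roles given here are those known mainly from human and mouse.

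All values are log2 intensities, and a difference of 1 log2 unit is a doubling of intensity. A gene was called when its adjusted p was under 0.05, from limma's moderated test after Benjamini-Hochberg adjustment across the 2446 tested genes. Of the 26 members, 25 were tested. EEF1A2, the elongation factor isoform of muscle and neurons, was too dim, with a mean of 2.30 over 29 arrays. The arrays had values for 34506 to 38801 features each, and the number of arrays per group limits the precision. Among tested members the pooled SD within groups ranged from 0.070 for EIF3D to 1.34 for EIF4B, with a median of 0.177, against a median of 0.272 over all genes tested. Each cow's deviations at T1 and T2 went together, but the main fits of changes between the times did not use this pairing. A fit with the cow as a block is therefore given where it changes a call on a member or a listed gene. That fit takes its spread from all 30 arrays. At T1 it called 234 genes, against 252 in a fit of all 30 arrays without the block and 7 on the T1 arrays alone. A call changed at T1 is therefore not an effect of the block alone.

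The lymphocyte label was set against marker genes. Of 9 T cell markers 7 were named on the array, and CD3E ranged from 12.46 to 14.96 over the arrays. Of 6 monocyte markers 2 were named, of which CD14 ranged from 10.98 to 15.61 and FCGR1A was dim. Of 8 neutrophil markers 4 were named. S100A12, a calcium-binding protein of neutrophils and monocytes, ranged from 16.30 to 17.86. LTF had a mean of 8.15, and CATHL1 (mean 3.64) and CATHL2 (mean 3.30) were dim. The red cell gene HBB had a mean of 16.98, so some markers of other blood cells had signal too. The first principal component was taken over genes outside the dimmest 25% that had a value on every array. On it, animals 28 (-22.90) and 32 (-24.76) lay well below the rest of the treated cows at T1. Without these cows 4 members were called at T2, against 13.7% of all genes, and 7 between times in treated cows, against 26.2%. For the change of the treatment difference 4 were called without them, against 9.16% of all genes. The full set of cows gave 5, 8 and 6 members. At T1 the count without them was 0 (0% of all genes) and over both times it was 1 (0.777%), the same member counts as in the full set.

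At T1 no member was called between treated cows and controls, where 0.286% of all genes tested were called, and 6 of 25 members had an unadjusted p under 0.05, as did 21.3% of all genes. At T2, 5 of 25 members were called, or 20%, against 18.2% of all genes. The members called higher in treated cows were EIF4A2 and EIF4G2 (2 of 25, background 10.7%), and those called lower were EIF4A1, EIF4E and EIF2B2 (3 of 25, background 7.48%). The share of members called at T2 was close to that of all genes. The median difference at T2 was 0.03 over the members and 0.04 over all genes tested. Of the 5, 4 were among the 5 tested members with an EIF4 symbol, with 2 called higher and 2 lower. This grouping was made with earlier results of these data known, and EIF4A1 was called on its brighter pair of spots only.

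**Figure D1:**
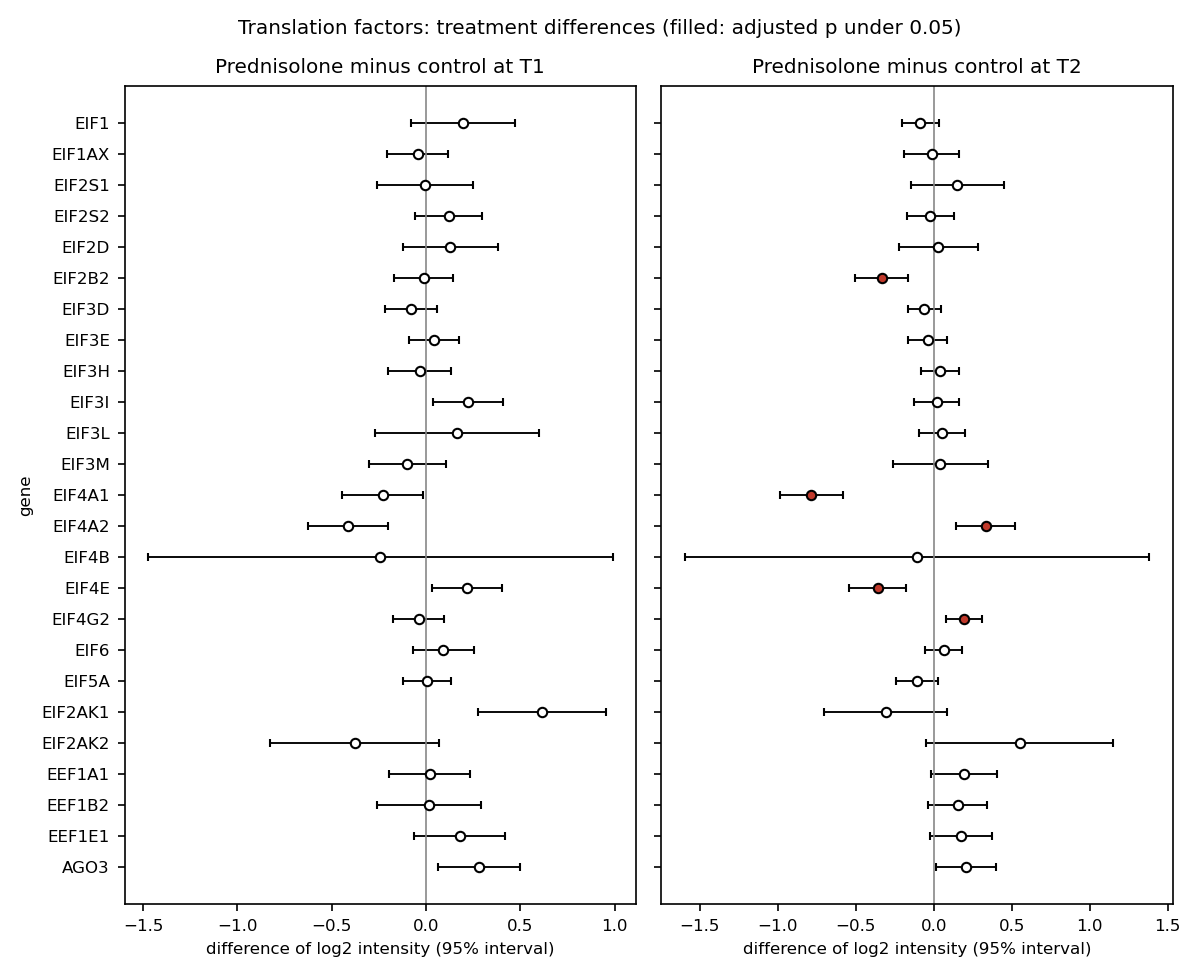
Difference between prednisolone and control group means (log2 intensity, x axis, with 95% intervals) for each of the 25 tested members at T1 (left) and T2 (right). Filled points have an adjusted p under 0.05: none at T1 and 5 at T2, with EIF4A1 lowest at -0.78.

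EIF4A1 and EIF4A2 encode the paralogous helicases that unwind structure ahead of the scanning ribosome, and on the array they differed from controls in opposite directions at T2. EIF4A1, read by its brighter pair of spots, lay at 14.50 to 14.87 (median 14.72) in controls at T2. In treated cows at T2 it lay at 13.68 to 14.23 (median 13.92). Every treated cow was below every control. The difference was -0.78 (SE 0.094, adjusted p = 1.02e-04), and bulk RNA cannot tell fewer cells of a type from less RNA per cell. At T1 the ranges overlapped, at 14.70 to 15.19 (median 14.99) in controls and 14.39 to 15.01 (median 14.86) in treated cows, with a difference of -0.23 (SE 0.100, adjusted p = 0.2010).

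EIF4A1 was the only member called over both times, when each cow's T1 and T2 values were averaged (-0.51, SE 0.056, adjusted p = 3.78e-04), where 2.25% of all genes were called. This average shares its arrays with the comparisons at T1 and at T2. Of the 4 members next in p, AGO3 differed by 0.24 (adjusted p = 0.1113), EIF2B2 by -0.17 (0.1064), EIF3I by 0.12 (0.2413) and EEF1E1 by 0.18 (0.3059).

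The array carried EIF4A1 on 4 spots, where the other members had 2, and its pairs disagreed. On the dimmer pair, controls at T2 lay at 10.68 to 11.67 (median 10.88) and treated cows at 10.77 to 11.67 (median 10.94). These ranges overlapped almost entirely. The difference on the dimmer pair was 0.03 (SE 0.158, adjusted p = 0.9325), and over both times it was -0.04 (SE 0.096). Averaging all 4 spots gave -0.38 at T2 (adjusted p = 0.0032). The spots within each pair went together, with a correlation over arrays of 0.98 for the brighter pair and 0.72 for the dimmer. The calls on EIF4A1 therefore rest on the brighter pair, and whether a probe also bound the related EIF4A2 message was not tested.

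**Figure D2:**
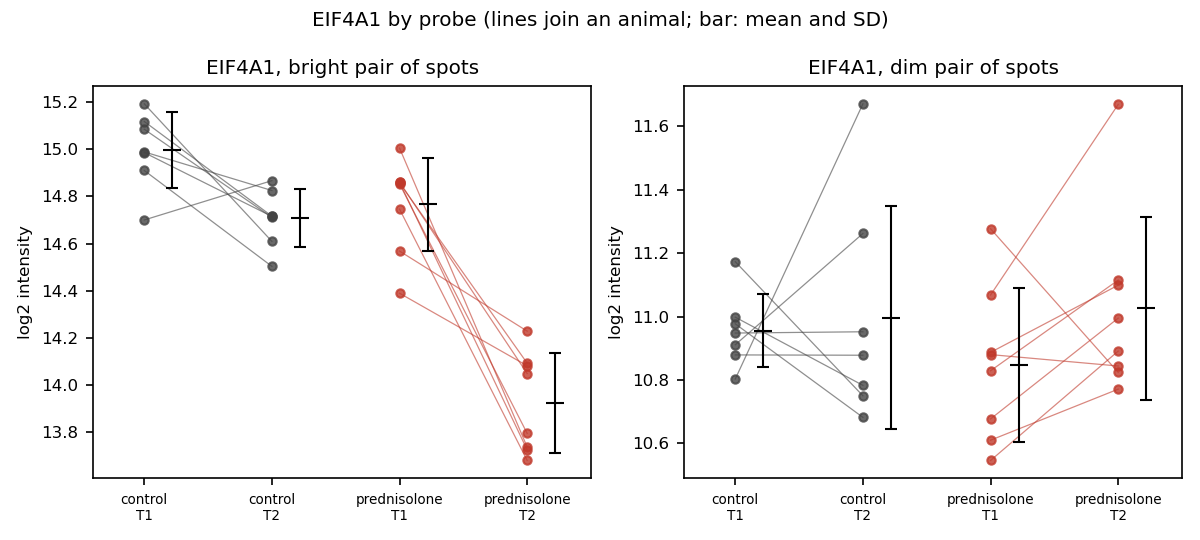
EIF4A1 log2 intensity (y axis) on its brighter (left) and dimmer (right) pair of spots in the 4 groups (x axis), with lines joining the arrays of a cow and bars for the mean and SD. The treated T2 arrays lie below all control T2 arrays on the brighter pair, at 13.68 to 14.23, and among them on the dimmer pair.

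EIF4A2 went the other way with time. At T1 it lay at 15.01 to 15.44 (median 15.34) in controls and 14.53 to 15.06 (median 14.87) in treated cows. The treated cows were mostly lower, with a small overlap. The difference was -0.42 (SE 0.099, adjusted p = 0.0586). In the fit of all 30 arrays with the cow as a block the adjusted p was 0.0134. At T2 controls lay at 14.84 to 15.32 (median 15.01) and treated cows at 15.09 to 15.57 (median 15.32). Here the treated cows were higher, with 1 control, animal 21, inside their range. EIF4A2 was higher by 0.33 at T2 (SE 0.089, adjusted p = 0.0179).

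EIF4E, the protein that binds the cap, lay at 9.39 to 9.91 (median 9.66) in controls and 9.15 to 9.58 (median 9.27) in treated cows at T2. The groups overlapped in part. EIF4E was lower in treated cows by a difference of -0.36 (SE 0.085, adjusted p = 0.0092). At T1 the treated cows lay at 9.78 to 10.18 (median 10.06) against 9.61 to 10.02 (median 9.81) in controls, a difference of 0.22 (SE 0.087) that missed the threshold (adjusted p = 0.1667).

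EIF4G2, a scaffold related to eIF4G that lacks the site for the cap binder, moved little but with little spread. At T2 it lay at 15.48 to 15.71 (median 15.59) in controls and 15.73 to 15.85 (median 15.79) in treated cows, so the groups did not overlap. The difference was 0.19 (SE 0.054, adjusted p = 0.0227). It missed the threshold on the values as deposited (adjusted p = 0.0553) and without animals 28 and 32 (adjusted p = 0.0585). EIF4A1 and EIF4G2 were the 2 members of 25 whose groups did not overlap at T2, where 4.01% of all genes did not.

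EIF4B, which stimulates the helicase, varied more between cows than any other tested member. Animal 18 (control) had 8.77 at T1 and 9.16 at T2, and animal 27 (treated) had 8.87 and 9.14. Animal 25 (treated) had 7.10 and 8.26. The medians of the 4 groups lay between 5.62 and 6.44, so these cows stood high in both treatment groups, the first 2 of them at both times. The spots of EIF4B went together over the arrays (correlation 0.995), and the difference at T2 was -0.11 (SE 0.700). Without animals 18, 25 and 27, left out after their values were seen, it was -0.43 (SE 0.383, adjusted p = 0.5572).

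**Figure D3:**
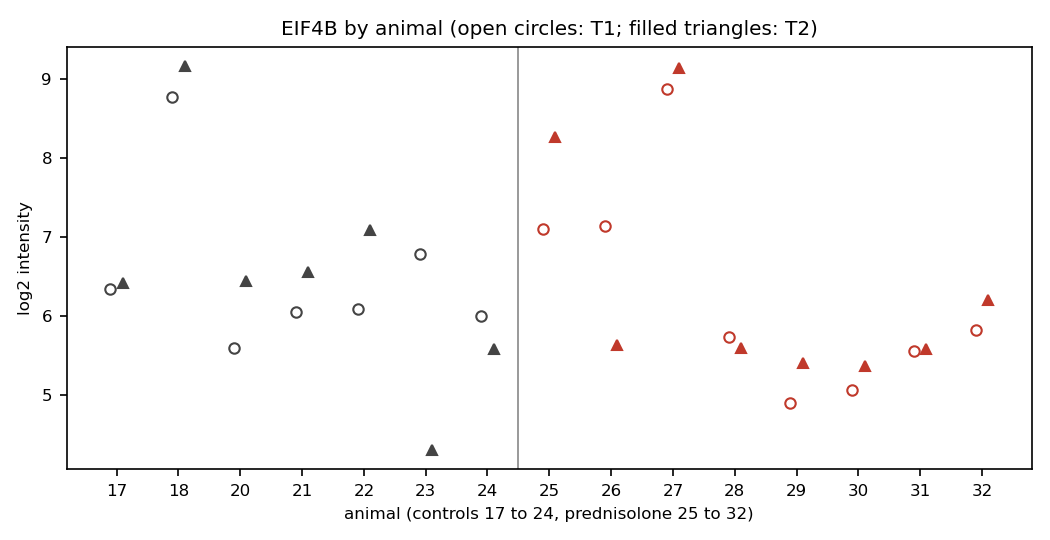
EIF4B log2 intensity (y axis) for each cow (x axis, numbered as in the labels), at T1 (open circles) and T2 (filled triangles), controls in grey and prednisolone in red. Animals 18 and 27 lie between 8.77 and 9.16 at both times, above the group medians of 5.62 to 6.44.

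EIF2B2 encodes a subunit of eIF2B. At T2 it lay at 11.38 to 11.64 (median 11.50) in controls and 10.90 to 11.43 (median 11.16) in treated cows. Most treated cows lay below all controls, with a small overlap. It was lower by a difference of -0.33 (SE 0.080, adjusted p = 0.0101), while at T1 the difference was -0.01 (SE 0.073).

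The 5 members that load the initiator tRNA or help to find the start codon did not pass in either treatment comparison. These were EIF1 and EIF1AX, which open the small subunit for scanning, the eIF2 subunits EIF2S1 and EIF2S2, and EIF2D, which can deliver tRNA without eIF2. Their differences ranged from -0.04 to 0.20 at T1 and from -0.09 to 0.15 at T2. The 95% intervals at T2 reached from -0.22 for EIF2D to 0.45 for EIF2S1. With quantile normalization EIF1 was among the 6 of 22 members called at T2, against 22.7% of all genes. In that setting it was also among the 6 called for the change of the treatment difference, against 22.5%.

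None of the 6 eIF3 subunits passed in either treatment comparison. Their differences at T2 lay between -0.06 for EIF3D, a subunit that can itself bind the cap, and 0.05 for EIF3L. The widest 95% interval among them was that of EIF3M, from -0.26 to 0.35. At T1 EIF3I, a subunit of the eIF3 periphery, differed by 0.22 (SE 0.087, adjusted p = 0.1580).

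EIF6, which keeps the large ribosomal subunit from joining too early, differed by 0.06 at T2 (95% interval -0.05 to 0.18). EIF5A, which carries the modified amino acid hypusine and helps ribosomes through difficult stretches, differed by -0.11 (95% interval -0.24 to 0.03). Neither passed at T1 or T2.

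The elongation members were EEF1A1, which carries aminoacyl-tRNA to the ribosome, EEF1B2, which recharges it with GTP, and EEF1E1, a scaffold protein of the multi-synthetase complex. None passed in any of the 6 comparisons. Their differences at T2 were 0.19 (SE 0.100), 0.15 (SE 0.089) and 0.18 (SE 0.094), and at T1 0.02, 0.02 and 0.18. AGO3 differed by 0.28 at T1 (SE 0.103, adjusted p = 0.1367) and by 0.21 at T2 (SE 0.091, adjusted p = 0.1365).

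The kinases of eIF2 were represented by EIF2AK1, which responds to low haem, and EIF2AK2, which responds to double-stranded RNA and is induced by interferon. EIF2AK1 was dim, and both its spots had a value on 20 of the 30 arrays. At T1 it lay at 3.84 to 4.92 (median 3.95) in controls and 4.33 to 5.11 (median 4.79) in treated cows. Only animal 24 among the controls reached the treated range. The difference was 0.61 (SE 0.160, adjusted p = 0.0628), and 0.0246 with the cow as a block. With that block, 9.57% of all genes and 2 of 25 members, EIF2AK1 and EIF4A2, were called at T1. A fit of all 30 arrays without the block called 10.3% of all genes and 3 of 25 members at T1: EIF2AK1, EIF4A2 and EIF3I. At T2 the block fit called the same 5 members as the main fit, against 15.4% of all genes. With the block EIF4A1 was again the 1 member called over both times, where 3.64% of genes were called. At T2 EIF2AK1 differed by -0.31 (SE 0.184) and EIF2AK2 by 0.55 (SE 0.281), and neither passed.

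The change from T1 to T2 was then followed within each treatment group. In controls no member was called and 0% of all genes were, with 4 of 25 members at an unadjusted p under 0.05, as were 10% of all genes. The 5 members of smallest p in controls were EIF4A1 (-0.29), EIF3L (0.61), EIF4A2 (-0.23), EIF3D (-0.15) and EIF4E (-0.14). With the cow as a block 1.59% of genes and 1 member, EIF3L (adjusted p = 0.0273), were called in controls, and with the cow as a fixed term EIF3L was not (adjusted p = 0.1670).

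In treated cows 8 of 25 members were called between T1 and T2, or 32%, against 37.4% of all genes. EIF4A2, EIF4G2 and EIF3L rose (background 21.6%), and EIF4A1, EIF4E, EIF2B2, EIF2AK1 and EIF3D fell (background 15.9%). The share of members called was near that of all genes. With the cow as a block 11 members were called, against 45.9% of all genes. The treated T1 and T2 arrays are also those of the treatment comparisons, so these results share samples with them.

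EIF4E fell in all 8 treated cows, by a group difference of -0.72 (SE 0.079, adjusted p = 8.11e-06). EIF4A1 fell in all 8 on its brighter pair, by -0.84 (SE 0.103, adjusted p = 1.66e-05), while its dimmer pair differed by 0.18 (SE 0.130, adjusted p = 0.2961). EIF4A2 rose in all 8 by 0.52 (SE 0.091, adjusted p = 3.80e-04). For these 3 genes the T1 and T2 ranges of the treated cows did not overlap.

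EIF4G2 rose in all 8 treated cows by 0.26 (SE 0.048, adjusted p = 5.35e-04). EIF2B2 fell in all 8, by a difference of -0.37 (SE 0.073, adjusted p = 8.93e-04). EIF2AK1 fell in all 8 by a difference of -0.74 (SE 0.160, adjusted p = 0.0019), and its ranges overlapped. The ranges of 6 members did not overlap between treated T1 and T2, where 9.48% of all genes did not.

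EIF3L, a subunit of eIF3, went from 9.49 to 10.46 (median 10.11) at T1 to 10.46 to 10.80 (median 10.64) at T2 in treated cows. It rose by 0.50 (SE 0.116, adjusted p = 0.0032). In controls it went from 9.24 to 10.62 (median 10.06) to 10.38 to 10.67 (median 10.59). The change in controls was of similar size, 0.61, with a wider spread at T1, and the difference between the changes was -0.11 (SE 0.219, 95% interval -0.56 to 0.34).

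EIF3D fell in treated cows by a difference of -0.13 (SE 0.051, adjusted p = 0.0493), and was -0.15 in controls. The call on EIF3D lay at the threshold. It was lost without animals 28 and 32 (adjusted p = 0.1079), with the cow as a fixed term (0.1012), with no filter on dim genes (0.0698), with quantile normalization (0.0511), with all features averaged (0.0504) and with a floor of 16 (0.0505). With the cow as a block 3 more members passed in treated cows: EIF2AK2 (0.59, adjusted p = 0.0220), EIF2S2 (-0.16, adjusted p = 0.0420) and AGO3 (-0.21, adjusted p = 0.0249). With the cow as a fixed term EIF2D passed (-0.20, adjusted p = 0.0346) and EIF2S2 did not (adjusted p = 0.1306).

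**Figure D4:**
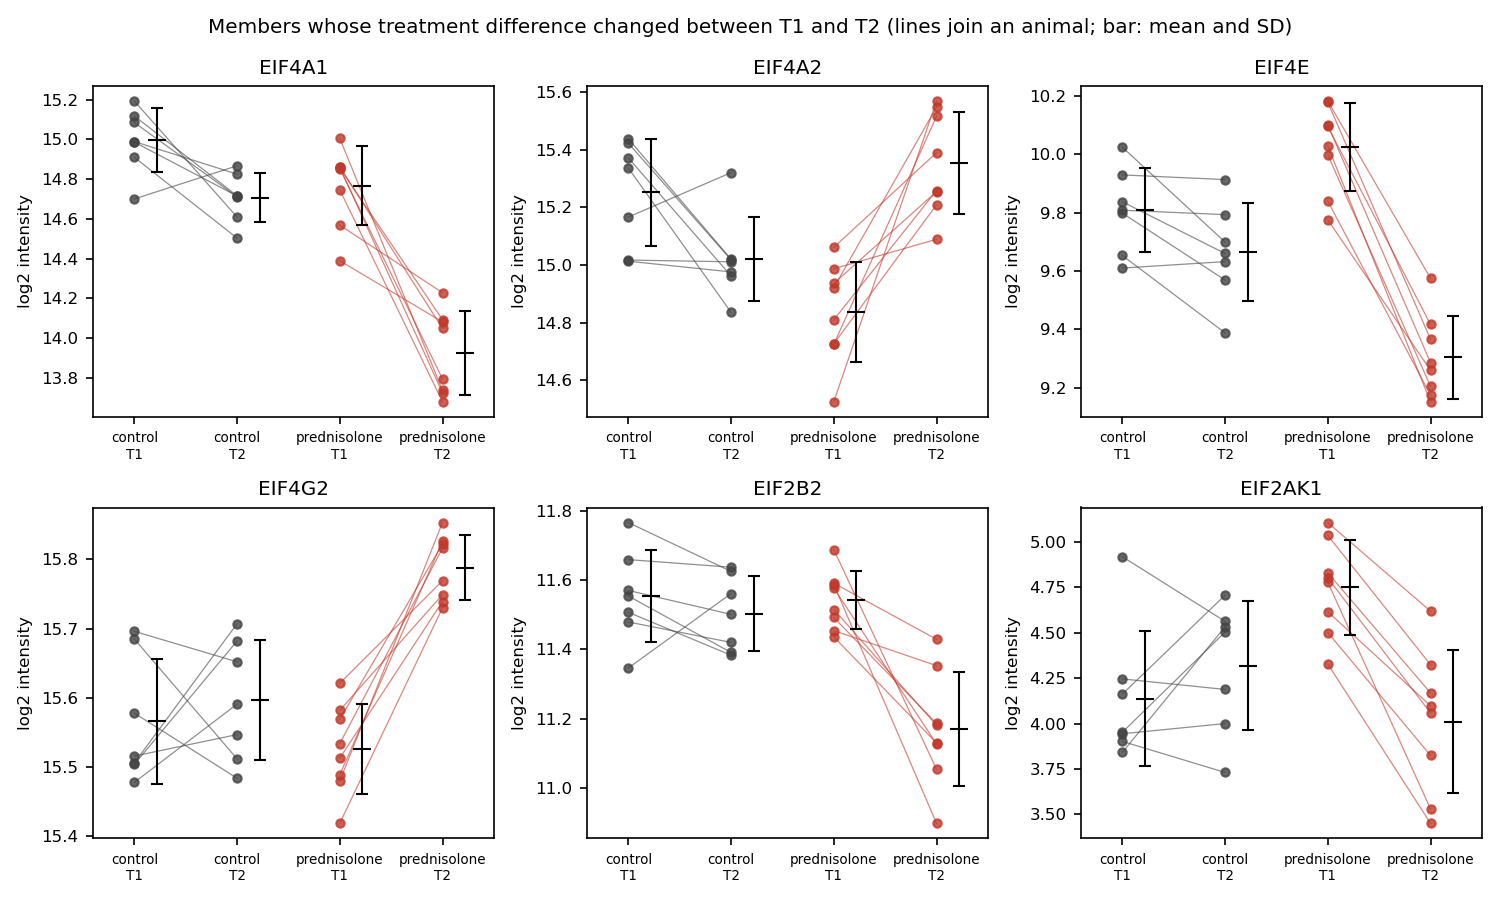
Log2 intensity (y axis, scaled for each gene) of the 6 members whose treatment difference changed between T1 and T2, in the 4 groups (x axis), with lines joining the arrays of a cow and bars for the mean and SD. EIF4A2 and EIF4G2 rise from T1 to T2 in all 8 treated cows and the other 4 genes fall in all 8.

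Whether the treatment difference changed between T1 and T2 was tested directly over all 30 arrays, as the T2 difference minus the T1 difference. This was called for 6 of 25 members, or 24%, against 17.7% of all genes. EIF4A2 and EIF4G2 were called upward (background 9.12%), and EIF4A1, EIF4E, EIF2B2 and EIF2AK1 downward (background 8.59%).

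EIF4A2 changed by 0.75 (SE 0.130, adjusted p = 4.45e-04), since it was lower in treated cows at T1 and higher at T2. EIF4E changed by -0.58 (SE 0.117, adjusted p = 0.0014). From T1 to T2, EIF4E differed by -0.32 to 0.02 in single control cows and by -0.88 to -0.52 in single treated cows. These ranges did not overlap. Those of EIF2AK1 did not overlap either, at -0.36 to 0.69 in controls and -1.25 to -0.49 in treated cows. The share of all genes with such ranges was not counted. EIF4A1 changed by -0.55 (SE 0.135, adjusted p = 0.0060) on its brighter pair and by 0.14 (SE 0.192, adjusted p = 0.6727) on its dimmer pair. With all 4 spots averaged the value was -0.21 (adjusted p = 0.1521), which is not a call.

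EIF2AK1 changed by -0.92 (SE 0.249, adjusted p = 0.0120), EIF2B2 by -0.32 (SE 0.102, adjusted p = 0.0286) and EIF4G2 by 0.23 (SE 0.072, adjusted p = 0.0252). Without animals 28 and 32, EIF2AK1 had an adjusted p of 0.0570 and EIF4G2 of 0.0558. EIF4G2 also missed the threshold on the values as deposited (adjusted p = 0.0568). EIF2AK2 changed by 0.93 (SE 0.361, adjusted p = 0.0731). It passed with the cow as a block (adjusted p = 0.0237), where 7 members and 26% of all genes were called. Single treated cows changed in EIF2AK2 by 0.02 to 1.14 and single controls by -1.55 to 0.44.

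**Figure D5:**
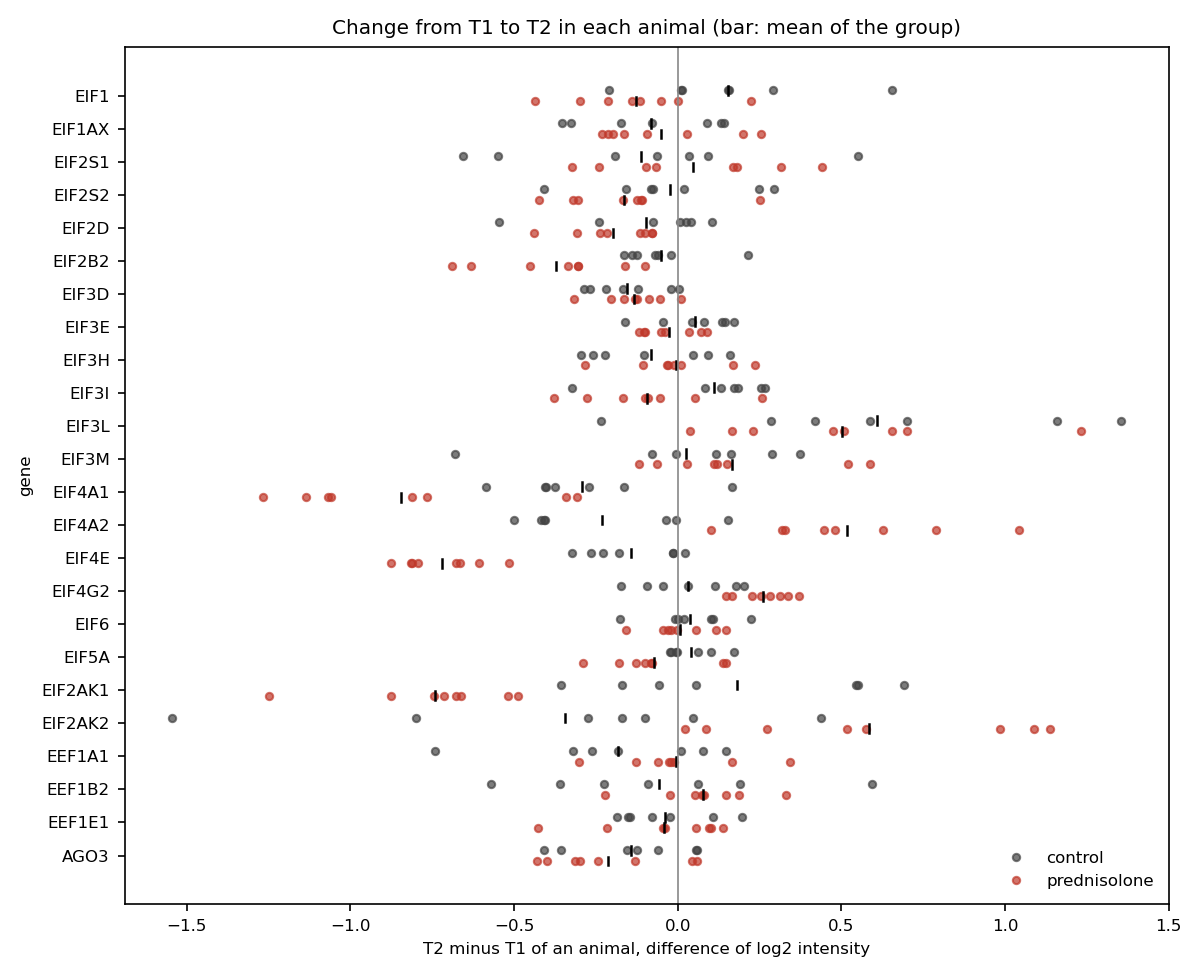
Change from T1 to T2 in each cow (difference of log2 intensity, x axis) for 24 tested members, EIF4B left out for its wide spread, with controls in grey, treated cows in red and a bar at each group mean. For EIF4E the treated cows lie between -0.88 and -0.52 and the controls between -0.32 and 0.02. The ranges of EIF2AK1 are also apart.

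Marker genes of other cells moved in the same comparisons. The summed level of the monocyte markers lay at 12.06 to 13.40 in controls and 13.33 to 15.61 in treated cows at T1. At T2 it lay at 12.02 to 13.77 in controls and 10.98 to 12.91 in treated cows. CD14, the marker that carries this sum, was lower in treated cows at T2 by a difference of -1.11 (SE 0.339, adjusted p = 0.0336). At T1 the CD14 difference was 1.44 (SE 0.319, adjusted p = 0.0586, and 0.0151 with the cow as a block). Between T1 and T2 it fell in treated cows by a difference of -2.33 (SE 0.370, adjusted p = 1.62e-04). The treatment difference of CD14 changed by -2.55 (SE 0.482, adjusted p = 8.49e-04).

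The T cell markers summed to 14.94 to 15.41 in treated cows at T1 and 15.04 to 15.58 at T2. In controls they summed to 13.98 to 15.33 and 14.97 to 15.35. Of the 6 T cell markers tested, 3 rose in treated cows from T1 to T2: CD2 by 0.36, CD3G by 0.34 and CD8A by 0.45. CD2 was also higher in treated cows at T2 by 0.32 (adjusted p = 0.0373, and 0.0615 with the block). Over both times CD2 was higher by 0.34 (adjusted p = 0.0441, and 0.0360 with the block). With the block it passed at T1 (0.35, adjusted p = 0.0491) and between times in controls (0.40, adjusted p = 0.0411). The T cell list was mixed. At T1 CD3E differed by 0.66, CD3D by 0.125, CD3G by -0.14, CD28 by -0.29 and CD8A by -0.43. The median of the 6 was -0.007. CD28 differed by -0.41 between times in controls, by -0.16 between times in treated cows and by -0.16 over both times. The list medians there were 0.07, 0.245 and 0.08, in the same order. Of 5 natural killer markers tested, NCR1 was higher in treated cows at T2 by 0.70 (adjusted p = 0.0417, and 0.0817 with the block). The other natural killer markers did not pass there, with KLRK1 at 0.30, PRF1 at -0.12, NKG7 at -0.25 and KLRD1 at -0.55, and the median of the 5 was -0.12. With the block NCR1 (0.84, adjusted p = 0.0050) and KLRK1 (0.58, adjusted p = 0.0273) passed between times in treated cows, and NCR1 for the change of the treatment difference (0.98, adjusted p = 0.0342). No tested marker of B cells (1 of 6), neutrophils (2 of 8), red cells (3 of 5) or platelets (1 of 4) passed in any comparison. Their summed levels overlapped between all 4 groups, at 13.11 to 14.83 for B cells, 16.30 to 17.86 for neutrophils, 15.07 to 18.49 for red cells and 10.39 to 11.94 for platelets. The part of these shifts in the values of the translation factors was not tested.

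Genes around the factors were read from pathway lists. Of 20 partners and growth signalling genes of eIF4F, 6 were tested. At T2, RHEB, the small GTPase that activates the growth kinase mTORC1, was lower in treated cows by a difference of -0.50 (SE 0.059, adjusted p = 1.02e-04). MKNK1, a kinase that phosphorylates eIF4E, was higher by 0.39 (SE 0.103, adjusted p = 0.0165).

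RHEB fell in treated cows from T1 to T2 by a difference of -0.59 (SE 0.057, adjusted p = 2.48e-06), and its treatment difference changed by -0.64 (SE 0.080, adjusted p = 2.57e-05). The treatment difference of PIK3CA, a catalytic subunit of phosphoinositide kinase upstream of mTOR, changed by 0.48 (SE 0.168, adjusted p = 0.0442). Over both times MKNK1 was higher by 0.41 (SE 0.084, adjusted p = 0.0263) and RHEB differed by -0.18 (SE 0.046, adjusted p = 0.0468). None of the 6 passed at T1 or between times in controls without the block. With it, MKNK1 (0.44, adjusted p = 0.0110) and PIK3CA (-0.40, adjusted p = 0.0391) passed at T1, and PIK3CA passed in controls (-0.46, adjusted p = 0.0273).

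Of 10 genes of the stress response that follows eIF2 phosphorylation only SESN2 was tested. This gene, which restrains mTORC1, was lower in treated cows at T2 by a difference of -0.52 (SE 0.162, adjusted p = 0.0368). Of 17 other initiation, termination and recycling genes 5 were tested, and none passed between treatments. From T1 to T2 in treated cows PELO, which rescues stalled ribosomes, fell by 0.25 (SE 0.085, adjusted p = 0.0316), and NACA, a chaperone subunit at the ribosome exit, rose by 0.21 (SE 0.073, adjusted p = 0.0324).

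Of 22 cytosolic aminoacyl-tRNA synthetases 4 were tested. GARS1, which charges glycine tRNA, fell by 0.26 in treated cows from T1 to T2 (SE 0.087, adjusted p = 0.0257), and no synthetase passed between treatments. With the block YARS1, which charges tyrosine tRNA, passed in treated cows from T1 to T2 (0.22, adjusted p = 0.0376). Of 9 mitochondrial translation factors 3 were tested, and none passed in any comparison.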

How the data were processed

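RNA of bovine lymphocytes was hybridised to 1-colour Agilent bovine arrays (Cyanine 3). The deposited table holds linear intensities of 44407 features, from 1.62 to 1067622, with 17.16% of cells null. Scans at 2 sensitivities were read with Feature Extraction 9.5, per the series text, and R 2.11.1 is named in the submitters' processing notes. How the authors normalized between arrays is not given in the sources read, nor are slides or scan batches, so no batch was tested.

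The design had to fit the unit of the deposited intensity values: each array was scaled to percentile 75 over the 23055 features measured on every array (at most 0.044 log2 units), raised to a floor of 2.511 (percentile 1) and logged. Of 6954 named features, 5432 were named through accessions, 1340 by current symbol, 158 by synonym and 24 by the platform's name. A gene was the mean of its features within 0.25 log2 units of the brightest, kept with a value on at least 4 arrays per group and outside the dimmest 25%. This left 2446 genes, tested with limma 3.58.1 in R 4.3.3 (lmFit, eBayes, two-sided, Benjamini-Hochberg, threshold 0.05), with the arrays of the groups compared. The self-written code was tested on simulated data.

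A cow gives 1 array at each time, so its number pairs the arrays. Deviations from the group means correlated within a cow at 0.217 to 0.705 (median 0.453, 2230 genes), and all 15 cows correlated best with themselves. The block was a random term (consensus correlation 0.26) or a fixed one. Members, gene lists and alternatives were chosen with earlier results of these data known. Named were all members with an adjusted p under the threshold in the fit or its block, at least 5 per comparison by p, all others by role, and of each list up to 4 that passed.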

Additional observations from a re-analysis of the deposited data

Results flagged for a closer look

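Of 104 sets of member values tested, 1 set being a member in 1 group, 12 held a cow whose value stood far from the rest of its group by Dixon's test, and chance alone gives about 1 in 20. Among elongation members, EEF1A1 was lowest in control animal 23 at T2 (15.28, others 15.77 to 16.07) and EEF1E1 in control animal 20 at T2 (8.30, others 8.67 to 8.90). The dim EEF1A2 was highest in treated animal 32 at T1 (4.95, others 1.94 to 2.68). EIF1 was lowest in control animal 22 at T1 (15.56, others 16.19 to 16.56), and EIF1AX was highest in treated animal 32 at T2 (15.38, others 15.09 to 15.21). EIF3M was lowest in control animal 24 at T2 (13.07, others 13.88 to 14.21). EIF4A2 was highest in control animal 21 at T2 (15.32, others 14.84 to 15.02), and EIF4B in control animal 18 at T1 (8.77, others 5.60 to 6.79). EIF6 was highest in treated animal 30 at T2 (14.08, others 13.83 to 13.92). Of the kinases, EIF2AK1 was highest in control animal 24 at T1 (4.92, others 3.84 to 4.25) and EIF2AK2 in treated animal 26 at T2 (9.15, others 7.50 to 8.26). AGO3 was lowest in treated animal 26 at T1 (8.35, others 8.69 to 8.96).

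For 6 members the treatment difference at T2 differed from that at T1 by the direct test: EIF4A2 by 0.75, EIF4G2 by 0.23, EIF4A1 by -0.55, EIF4E by -0.58, EIF2B2 by -0.32 and EIF2AK1 by -0.92.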

How the results depend on the processing

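Over 38 results on named members, 403 refits gave 365 with the same direction and side of the threshold, 13 no longer past it, 21 newly past it and 4 of opposite sign. The 4 were EIF4A1 on its dimmer pair of spots, chosen after the data were seen: 0.029 at T2, 0.041 over time in controls, 0.18 over time in treated cows and 0.14 for the change of the treatment difference. The cause was not tested. The count of members called at T1, 0, became 1 with quantile normalization (2.82% of all genes) and 1 with array weights (2.7%). It became 3 in 1 fit of all 30 arrays (10.3%) and 2 with the cow as a block (9.57%). Over both times, 1 became 3 in 1 fit (9.53% of all genes). It became 0 where every spot had to pass in a fit of 30010 features, of which 3.03% were called. For controls over time, 0 became 1 with the block (1.59% of all genes). For the change of the treatment difference, 6 became 2, EIF4A2 and EIF4E, where every spot had to pass, in a fit that called 18.7% of features. EIF2AK1, EIF2B2, EIF4G2 and EIF4A1 each missed the threshold there on at least 1 spot. The block changed no call on a member other than those given beside the results. Over all genes, calls at T1 went from 7 to 234 with the block, 252 in 1 fit, 46 with quantile normalization, 66 with array weights, and 0 with no filter on dim genes or without animals 28 and 32. Over both times they went from 55 to 233 in 1 fit, 89 with the block, 87 with quantile normalization, 33 with no filter and 19 without animals 28 and 32. The change of the treatment difference went from 433 to 224 genes without those animals. At T2, 262 genes were called higher and 183 lower, against 213 and 205 on the values as deposited. In treated cows over time, 528 rose and 388 fell, against 465 and 466. The quantile setting tested 1630 genes and 22 members, without EIF2AK1. With no filter on dim genes 3134 genes were tested, against 2446 in the main fit. Dim members such as EIF2AK1 are limited by null cells.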

Other observations

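Duplicate spots of the members went together over arrays with correlations from 0.22 to 0.995 (27 pairs, median 0.80), and the median gap between the spots of a pair was 0.03 log2 units. Within groups, the brighter and dimmer pairs of EIF4A1 correlated over cows at 0.34 in controls at T1, -0.39 in treated cows at T1, -0.53 in controls at T2 and -0.72 in treated cows at T2, over 7 or 8 cows each, as a description only.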
